A study of Mus musculus with 14 samples.

Results

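The CC chemokine ligands described here are the transcripts of 7 secreted chemoattractants, Ccl1, Ccl2, Ccl3, Ccl4, Ccl5, Ccl17 and Ccl22, in group 2 innate lymphoid cells (ILC2s) of the mouse lung. The genes were taken by name, and all 7 are among the 53278 gene rows of the count and TPM tables. ILC2s were sorted from whole lung as live, lineage-negative, CD90.2+ CD3- cells, cultured, and profiled by SMART-seq v4 RNA sequencing in 14 libraries from female mice, one library per mouse according to the series' design text. In the stimulation experiment, ILC2s of B6 mice received no IL-33 (unstimulated, n = 4) or were given 20 ng/mL of IL-33 over 24 h (IL-33 stimulated, n = 4). In the Blimp-1 experiment, ILC2s of ControlIL7RaCre mice (Control, n = 3) and Blimp-1IL7RaCre mice (Blimp-1-deficient, n = 3) all received 20 ng/mL of IL-33 plus 20 ng/mL of IL-25 over 72 h. The sources differ on the unstimulated cells: the design text and the methods have them cultured for the same time, the study elsewhere calls them ex vivo or naïve, and the labels give no time. Change with IL-33 and change with culture therefore cannot be told apart with certainty. The methods add IL-2 to the 72 h culture, which the sample labels do not name. The general culture section of the methods adds 20 ng/mL of IL-2 to sorted ILC2s, so IL-2 may have been present in the 24 h experiment too. IL7Rα-Cre is active in all innate lymphoid subsets and in T, B and NK cells, so cells other than ILC2s in these mice also lacked Blimp-1, the transcriptional repressor encoded by Prdm1. Mice of the Blimp-1 experiment were matched for age, and the methods give all animals of the study as older than 6 weeks.

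CC chemokines are small secreted proteins that bind G-protein-coupled receptors and draw receptor-bearing leukocytes along their gradient. Ccl2 recruits monocytes through Ccr2. Ccl3, Ccl4 and Ccl5 are inflammatory chemokines that draw monocytes, T cells and NK cells, and Ccl3 and Ccl5 bind Ccr1. Ccl17 and Ccl22 are the ligands of Ccr4, a receptor of Th2 and regulatory T cells, and in lung both are best known as products of dendritic cells and macrophages. Ccl1 binds Ccr8, which marks Th2 cells and ILC2s.

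The members lie in 2 chromosomal clusters, given here in the GENCODE M21 annotation of GRCm38. On chromosome 11, Ccl2 spans chr11:82035571-82037453 on the plus strand, and Ccl1 follows on the minus strand at chr11:82176657-82305690. Further along are Ccl5 (chr11:83525778-83530518, minus), Ccl3 (chr11:83647844-83649355, minus) and Ccl4 (chr11:83662584-83664683, plus), the last pair separated by 13228 bases. On chromosome 8, Ccl22 (chr8:94745590-94751699, plus) and Ccl17 (chr8:94810453-94812036, plus) lie 58753 bases apart. No exon of a member overlaps an exon of another gene, and no stretch of 75 bases of a member transcript, the read length of the study, occurs in a transcript of another gene. The coding transcripts of all 7 genes have 3 exons. Ccl1 also has a non-coding transcript of 11 exons and 2126 bases, which brings the deposited gene length to 2369 bases against 611 for its longest coding transcript.

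Promoter sequence was at hand in RefSeq (GRCm38.p6) for 4 of the 7 members, Ccl1, Ccl3, Ccl17 and Ccl22. Sequences upstream of 3 of them are printed 5′ to 3′ on the gene's strand: Ccl1, which has the only match to the NF-κB consensus among the 4, and the Ccr4 ligand genes Ccl17 and Ccl22, which lie in 1 cluster with Cx3cl1 between them. Ccl17 rose after IL-33 and Ccl22 was not called, but a test of their ratio did not pass 0.05. Each window ends at the base before the start of the coding transcript, and that of Ccl1 (chr11:82179813-82180062) lies within an intron of its long non-coding transcript. The Ccl17 window is chr8:94810203-94810452, and the shorter Ccl22 window is chr8:94745434-94745589. Capitals mark the NF-κB consensus, searched by name on both strands, and the letters GAAAG, the core of the Blimp-1 motif, also on both strands.
Ccl1: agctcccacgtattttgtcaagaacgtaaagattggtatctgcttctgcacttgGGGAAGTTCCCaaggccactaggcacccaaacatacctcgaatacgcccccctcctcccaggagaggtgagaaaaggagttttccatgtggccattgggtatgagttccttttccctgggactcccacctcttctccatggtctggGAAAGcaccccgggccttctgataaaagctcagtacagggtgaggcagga
Ccl17: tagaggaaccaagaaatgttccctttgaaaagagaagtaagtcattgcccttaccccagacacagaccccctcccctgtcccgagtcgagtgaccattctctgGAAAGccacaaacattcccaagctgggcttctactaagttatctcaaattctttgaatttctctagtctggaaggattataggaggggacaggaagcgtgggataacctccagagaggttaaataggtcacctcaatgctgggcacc
Ccl22: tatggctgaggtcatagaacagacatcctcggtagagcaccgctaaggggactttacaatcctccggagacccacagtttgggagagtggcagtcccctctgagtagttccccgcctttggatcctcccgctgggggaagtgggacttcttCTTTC

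The NF-κB match in Ccl1 is on both strands, as overlapping matches 196 to 186 bases before the start, and 7.25% of 32851 mouse promoter windows of 250 bases hold such a match. GAAAG or its complement was found once in each of the 4 windows, Ccl3 included, where 51.5% of all windows of 250 bases and 38.0% of windows as short as that of Ccl22 hold it. These are matches of letters, not binding sites, and no binding was measured.

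The libraries of the stimulation experiment held 10470125 to 32849428 counts and those of the Blimp-1 experiment 13570188 to 76448945. Levels are given as CPM, counts scaled to the library total, after TMM normalisation within each experiment, so levels of the 24 h and 72 h experiments are not on 1 scale. A pair of libraries stood apart. Control replicate 2 had 78.3% of its counts in its 10 largest rows (4.37 to 9.83% in the other libraries), only 56 counts over all 7 members (609 to 3683 elsewhere), and Col1a1, a fibroblast collagen, at 2171 CPM. IL-33 stimulated replicate 3 was the shallowest of its experiment, and its log2 ratios to the other libraries of its group had a mean SD across genes of 1.82, against 0.885 to 0.917 for the others. A level of 3 counts, used as the floor, was 0.731 CPM in Control replicate 2, 0.296 CPM in IL-33 stimulated replicate 3 and at most 0.128 CPM in the other libraries. Each member is compared with and without these libraries, except Ccl4 after IL-33. Without replicate 3, Ccl4 did not pass the filter on low counts, and no unfiltered fit was made there. All 10 ILC2 markers listed, among them Gata3, Il1rl1 and Klrg1, were detected in every library. They summed to 7414 to 8015 CPM in unstimulated, 4750 to 6717 in IL-33 stimulated, 5137 to 5906 in Control and 4467 to 4759 CPM in Blimp-1-deficient libraries. Prdm1 was at no more than 14.6 CPM in the 3 Blimp-1-deficient libraries and 74.0 to 92.8 CPM in Control. It fell by 2.68 on the log2 scale (SE 0.15, adjusted p = 0.00441), and in fits without 1 library by 2.57 to 2.80, with an adjusted p from 0.000134 to 0.0656 that missed the threshold without any 1 of the Blimp-1-deficient libraries. These are sorted but bulk samples, in which fewer cells of a type and less RNA per cell cannot be told apart.

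**Figure D1:**
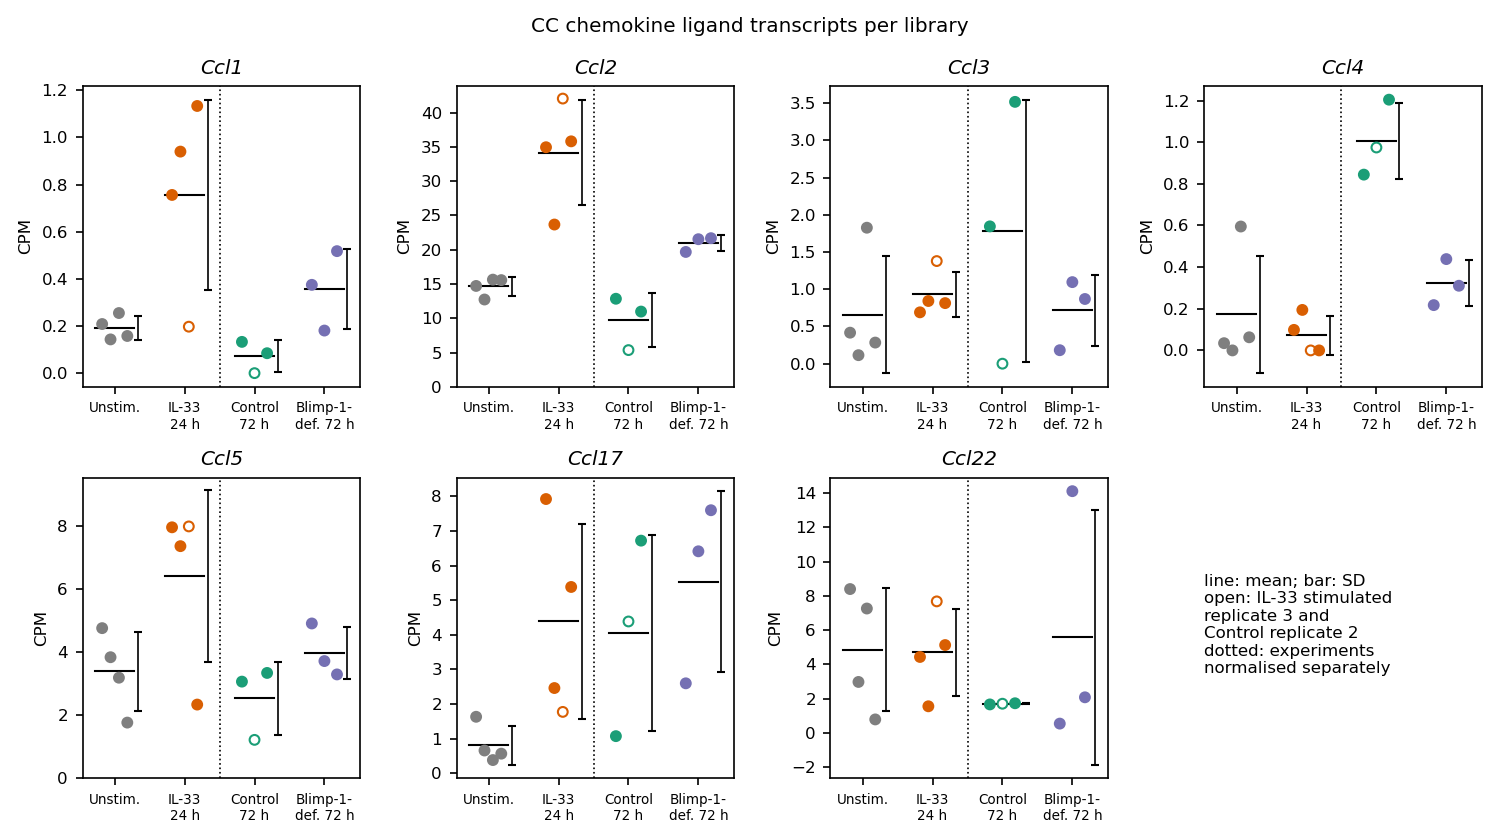
CPM of each CC chemokine ligand (vertical axis, linear, 1 panel per gene) in the 14 libraries of the 4 groups (horizontal axis), with the group mean as a line and the SD as a bar. The 4 IL-33 stimulated libraries lie above all unstimulated libraries for Ccl2 and Ccl17. The 3 Blimp-1-deficient libraries lie above all Control libraries for Ccl2 and Ccl1 and below them for Ccl4. In Control replicate 2 the values of Ccl2, Ccl1 and Ccl4 rest on 22, 0 and 4 counts. The share of all genes that separate in these ways was not counted. Open symbols are IL-33 stimulated replicate 3 and Control replicate 2, and the dotted line separates experiments that were normalised separately.

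Ccl2 was the most abundant member per length in all 4 group means. Divided by the deposited gene length, its mean level was 12.9 CPM per kilobase in unstimulated, 30.0 in IL-33 stimulated, 8.55 in Control and 18.4 in Blimp-1-deficient ILC2s. It made up 51.0 to 78.2% of the summed CPM per kilobase of the 7 members in the unstimulated libraries, 53.3 to 68.6% in the IL-33 stimulated and 43.5 to 60.9% in the Blimp-1-deficient ones. In Control it made up 53.7, 28.2 and 28.9%, and in replicates 2 and 3 Ccl17 was above it at 51.0 and 39.1%. Its range did not overlap that of the next member in the unstimulated, IL-33 stimulated and Blimp-1-deficient groups, whereas in Control it ran from 4.71 to 11.3 CPM per kilobase, inside the range of Ccl17 (2.09 to 13.1).

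Below Ccl2 the order differed between groups and was loose. In unstimulated ILC2s the mean CPM per kilobase was 3.53 for Ccl5, 2.09 for Ccl22, 1.58 for Ccl17, 0.862 for Ccl3, 0.262 for Ccl4 and 0.0806 for Ccl1, and the ranges of neighbours in this order overlapped throughout. After IL-33 Ccl17 stood second at 8.53, followed by Ccl5 at 6.67, Ccl22 at 2.02, Ccl3 at 1.22, Ccl1 at 0.319 and Ccl4 at 0.111. There only Ccl3 and Ccl1 were neighbours whose ranges did not overlap (0.901 to 1.80 against 0.0832 to 0.478). In Control the order after Ccl2 was Ccl17 (7.90), Ccl5 (2.65), Ccl3 (2.33), Ccl4 (1.53), Ccl22 (0.731) and Ccl1 (0.0306), and in Blimp-1-deficient ILC2s it was Ccl17 (10.8), Ccl5 (4.14), Ccl22 (2.40), Ccl3 (0.934), Ccl4 (0.488) and Ccl1 (0.151). Without Control replicate 2, Ccl3 stood above Ccl5 in Control, at a mean of 13.5 against 12.8 TPM. In Control Ccl22 was separated from its neighbours on both sides, and in Blimp-1-deficient ILC2s Ccl1 was separated from Ccl4. Per length of the longest coding transcript, an alternative chosen after the data were seen, Ccl5 stood above Ccl17 after IL-33 (12.04 against 8.53 CPM per kilobase) and Ccl1 above Ccl3 (1.24 against 1.22) there and above Ccl4 in the unstimulated and Blimp-1-deficient groups, while Ccl2 stayed first in all 4.

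**Figure D2:**
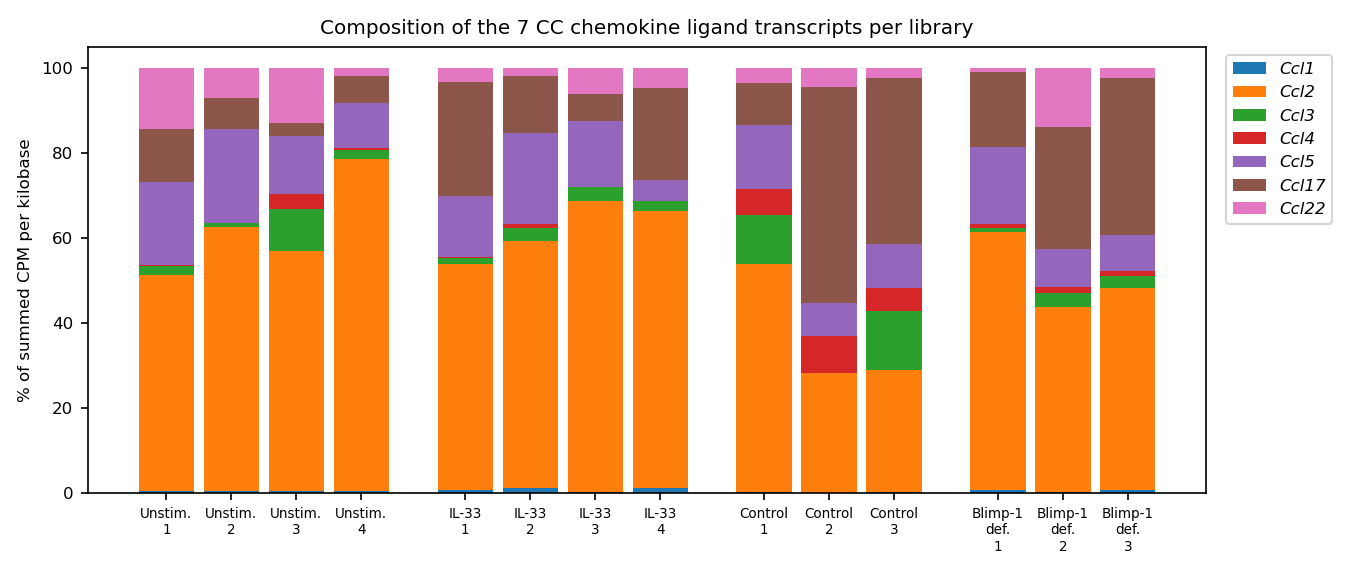
Share of each member in the summed CPM per kilobase of the 7 members (vertical axis, percent) in each of the 14 libraries (horizontal axis, by group and replicate). Ccl2 is the largest share in all 8 libraries of the stimulation experiment, and Ccl17 takes 3.06 to 12.5% of the unstimulated and 6.40 to 26.7% of the IL-33 stimulated libraries.

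The first comparison asks which secreted factors ILC2s made within a day of IL-33. Ccl2 and Ccl17 rose, by log2 fold changes of 1.22 and 2.43. Ccl1 and Ccl4 were too low for the main test. Of the 7 members, 5 passed the filter on low counts (Ccl2, Ccl3, Ccl5, Ccl17 and Ccl22), and 2 of these rose and 0 fell, taking an adjusted p below 0.05 as the threshold (edgeR's quasi-likelihood test, Benjamini-Hochberg adjusted across the whole table). Among all 15466 genes tested, 16.2% were higher and 16.1% lower. The median log2 fold change was 0.92 over the 5 members and 0.06 over all genes. Without IL-33 stimulated replicate 3, 6 members were tested, of which 3 were higher and 0 lower, the third being Ccl1, which entered through its stimulated libraries alone, against 27.5% higher and 29.7% lower of 15733 genes.

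Ccl2, the monocyte attractant, was at 14.7, 12.7, 15.6 and 15.6 CPM in unstimulated replicates 1 to 4 and at 34.96, 23.7, 42.1 and 35.8 CPM in the IL-33 stimulated ones. All 4 stimulated libraries lay above all 4 unstimulated libraries, with replicate 2 the lowest of the stimulated. Its log2 fold change was 1.22 (SE 0.18, adjusted p = 0.00142), and without IL-33 stimulated replicate 3 it was 1.10 (SE 0.14, adjusted p = 0.000105). Ccl2 passed the threshold in every alternative run for this comparison.

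Ccl17, a ligand of Ccr4, was at 1.63, 0.658, 0.382 and 0.567 CPM in the unstimulated libraries, from 9 to 47 counts. It was at 7.92, 2.46, 1.77 and 5.38 CPM after IL-33, from 18 to 241 counts. The groups did not overlap, but the lowest stimulated library, replicate 3, was close to the highest unstimulated one, replicate 1. This was a log2 fold change of 2.43 (SE 0.63, adjusted p = 0.0198), and 2.68 (SE 0.49, adjusted p = 0.00101) without IL-33 stimulated replicate 3. The call was lost without IL-33 stimulated replicate 1 (log2 fold change 1.99, adjusted p = 0.0523) and without unstimulated replicate 2, 3 or 4 (adjusted p = 0.0554, 0.0579 and 0.0539), with the fold change between 1.99 and 3.06 over all such fits.

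Ccl22, which shares the receptor Ccr4 with Ccl17, was at 8.40, 2.98, 7.27 and 0.788 CPM in unstimulated and at 4.44, 1.56, 7.68 and 5.13 CPM in IL-33 stimulated ILC2s. The groups overlapped over most of their range, and unstimulated replicate 4 was the lowest of the 8 libraries. A log2 fold change of -0.05 (SE 0.72, adjusted p = 0.963) resulted, or -0.38 (adjusted p = 0.647) without IL-33 stimulated replicate 3, and its sign changed with single libraries. The ratio of Ccl17 to Ccl22 counts within a library was 0.194, 0.221, 0.0526 and 0.72 in unstimulated libraries and 1.79, 1.58, 0.231 and 1.05 after IL-33. The ratio was above 1 in 3 of 4 stimulated libraries and in 0 of 4 unstimulated ones, with stimulated replicate 3 among the unstimulated values. The mean log2 ratio was 2.18 higher after IL-33 (two-sided exact permutation test, p = 0.0571, n = 4 per group), where the smallest p the design allows is 0.0286. This ratio was chosen after the values were seen.

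Ccl1, the ligand of Ccr8, had 6, 5, 6 and 5 counts in the unstimulated libraries (0.143 to 0.255 CPM) and 23, 29, 2 and 32 after IL-33. These are 0.756, 0.940, 0.197 and 1.13 CPM, so 3 stimulated libraries stood above all unstimulated ones and replicate 3, with 2 counts and under the floor, did not. Fitted without a filter on low counts, the log2 fold change was 1.99 (SE 0.62, adjusted p = 0.0705). DESeq2 on all 8 libraries gave 2.07 (adjusted p = 0.00419), so the call differed between tools. Without replicate 3 Ccl1 passed the filter, but only through the 3 stimulated libraries in which it was high, so the fold change there (2.31, SE 0.35) is given as a description.

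Ccl5, a ligand of Ccr1 and Ccr3, was at 4.76, 3.84, 3.19 and 1.77 CPM in unstimulated and at 7.95, 7.35, 7.98 and 2.34 CPM in IL-33 stimulated ILC2s. Stimulated replicates 1 to 3 lay above every unstimulated library, and replicate 4 lay among them. The log2 fold change of 0.92 (SE 0.45, adjusted p = 0.149) did not pass the threshold. It was 0.80 (adjusted p = 0.126) without IL-33 stimulated replicate 3 and 1.19 (adjusted p = 0.0418) without replicate 4.

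Ccl3 and Ccl4, neighbouring genes for inflammatory chemokines, were low, and Ccl4 was near the floor. Ccl3 had 12, 4, 43 and 9 counts in the unstimulated libraries (0.417, 0.115, 1.83 and 0.284 CPM) and 21, 26, 14 and 23 after IL-33 (0.690, 0.842, 1.38 and 0.814 CPM). Unstimulated replicate 3 exceeded all stimulated libraries, which in turn exceeded the other 3 unstimulated ones. Ccl3 had a log2 fold change of 0.49 (SE 0.77, adjusted p = 0.645), 0.32 (adjusted p = 0.725) without IL-33 stimulated replicate 3, and 1.74 (adjusted p = 0.0522) without unstimulated replicate 3. Ccl4 had 1, 0, 14 and 2 counts in the unstimulated and 3, 6, 0 and 0 in the stimulated libraries, so only 1 library of each group was above the floor of 3 counts. Its log2 fold change without a filter was -1.01 (SE 1.44, adjusted p = 0.651), and no difference was detectable at this depth.

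**Figure D3:**
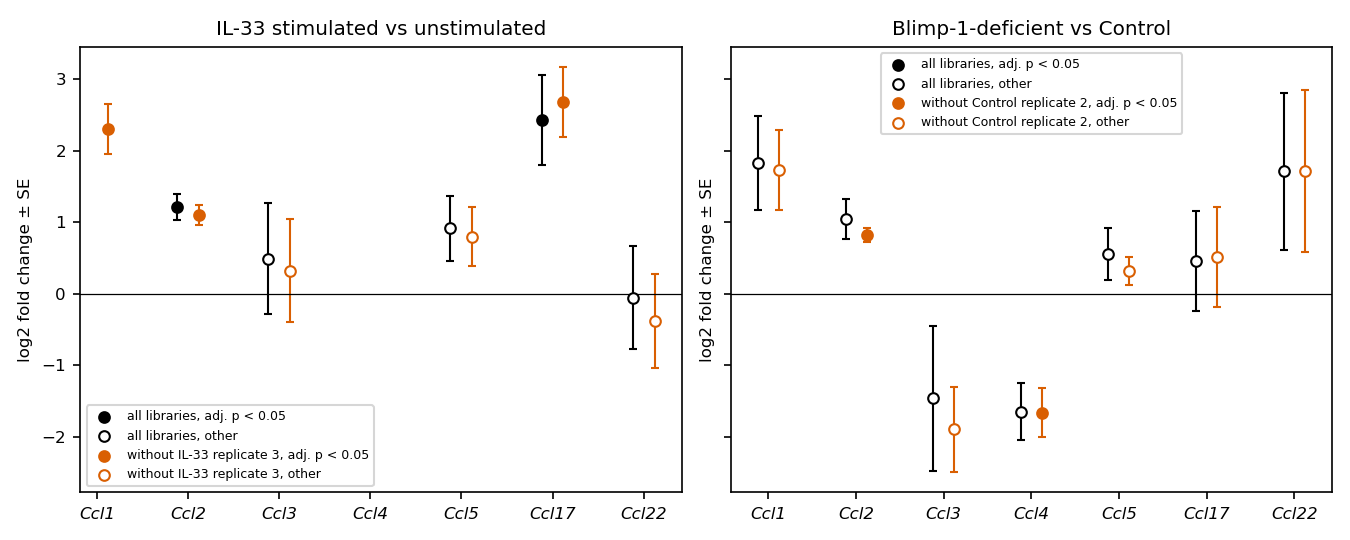
Log2 fold change with its SE from edgeR (vertical axis) for each member (horizontal axis), IL-33 stimulated against unstimulated on the left and Blimp-1-deficient against Control on the right, with all libraries (black) and without the library that stood apart (orange). Filled symbols have an adjusted p below 0.05: Ccl2 and Ccl17 on the left with all libraries, joined without IL-33 stimulated replicate 3 by Ccl1, which passed the filter there only through its stimulated libraries, and Ccl2 and Ccl4 on the right only without Control replicate 2. Ccl4 on the left, and Ccl1 there with all libraries, did not pass the filter on low counts.

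The second comparison asks which transcripts depended on Blimp-1 after 72 h of activation. With all 6 libraries no member passed the threshold. Without Control replicate 2, Ccl2 was higher and Ccl4 lower in Blimp-1-deficient ILC2s. All 7 members were tested, and 0 were higher and 0 lower, against 0.450% higher and 0.306% lower of 17335 genes. At an unadjusted p below 0.05 stood 3 members, Ccl1, Ccl2 and Ccl4, and 2071 of all genes, and DESeq2 called 1 member higher and 1 lower (1.85% and 1.83% of all genes). The median log2 fold change was 0.56 over the members and -0.02 over all genes. Without Control replicate 2, which leaves 2 Control libraries, 1 of 7 members was higher and 1 lower, against 8.25% higher and 5.72% lower of 17968 genes. In that fit the ILC2 markers moved too, with 4 of 10 higher (Rora, Il7r, Icos and Thy1) and 3 lower (Il1rl1, Klrg1 and Il2ra). Of the T cell markers 1 of 10 was higher there and 0 lower, and of 5 B cell markers tested 0 were higher and 1 lower. With all libraries 0 markers of these lists passed. Their part in the member values was not tested.

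Ccl2 was at 12.9, 5.36 and 11.0 CPM in Control replicates 1 to 3 and 19.7, 21.5 and 21.7 CPM where Blimp-1 was deleted. Every Blimp-1-deficient library lay above every Control library, and they differed little from each other. The level of Control replicate 2 rested on 22 counts, and the other 5 libraries had 1039 to 2096. Ccl2 had a log2 fold change of 1.05 (SE 0.28, adjusted p = 0.2) with all libraries and 0.82 (SE 0.10, adjusted p = 0.00328) without Control replicate 2. DESeq2 on all 6 libraries gave 1.06 (adjusted p = 0.014). Epithelial and stromal markers, 10 in all with 8 to 10 detected, summed to 203, 3574 and 314 CPM in Control replicates 1 to 3 and to 471, 499 and 664 CPM without Blimp-1. Of 8 tested, 0 passed with all libraries, and without Control replicate 2 there were 3 higher, Krt8, Pdgfra and Pecam1 (3.12, 1.45 and 1.15), and 0 lower. Their part in the Ccl2 values was not tested.

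Ccl4 was at 0.844, 0.974 and 1.20 CPM in Control, from 70, 4 and 114 counts, and without Blimp-1 at 0.218, 0.439 and 0.311 CPM, from 18, 34 and 30 counts. All Control libraries lay above all Blimp-1-deficient ones. Ccl4 had a log2 fold change of -1.65 (SE 0.40, adjusted p = 0.156) with all libraries and -1.66 (SE 0.35, adjusted p = 0.023) without Control replicate 2. Ccl3 was at 1.85 and 3.52 CPM in Control replicates 1 and 3 and at 0 counts in replicate 2, which allows up to 0.731 CPM there. In the Blimp-1-deficient libraries Ccl3 was at 0.181, 1.10 and 0.869 CPM, all below Control replicates 1 and 3. Its log2 fold change was -1.46 (SE 1.02, adjusted p = 0.655), and -1.90 (SE 0.60, adjusted p = 0.0779) without Control replicate 2. Ccl3 counts were 2.19 and 2.92 times Ccl4 counts in Control replicates 1 and 3 and 0.833, 2.50 and 2.80 times in the Blimp-1-deficient libraries. Across the 5 libraries without Control replicate 2, log2(CPM + 1) of Ccl3 and of Ccl4 had a Pearson r of 0.966, and 0.632 across the 8 libraries of the stimulation experiment, values that share each library's depth and group. In the stimulation experiment Ccl4 had 14 counts in unstimulated replicate 3, which also had the highest Ccl3, and no more than 6 in any other library. The r without that library was not computed.

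Markers of NK cells and ILC1s, which also make Ccl3 and Ccl4, are given beside these values. The 10 markers, of which 8 to 10 were detected, summed to 18.9, 18.8 and 14.5 CPM in Control and to 15.9, 4.97 and 5.53 CPM without Blimp-1, with overlapping ranges. Blimp-1-deficient replicate 1 had the highest sum of its group and the lowest Ccl3 and Ccl4. Of 9 tested, 0 were higher and 1 was lower, Eomes, a transcription factor of NK cells, at 2.19 to 2.39 CPM in Control and 0.259 to 0.520 CPM without Blimp-1 (log2 fold change -2.65, adjusted p = 0.0398). Among the fits without 1 library, only the one without Control replicate 2 called Eomes (adjusted p = 0.00327). With any other library left out the call was lost, and its adjusted p reached 0.254. Without Control replicate 2, Nkg7 and Klrd1 were lower too (-1.81 and -1.96, adjusted p = 0.0329 and 0.00968). The NK cell receptor Ncr1 had the opposite order, 0 to 0.217 CPM in Control and 0.245 to 2.07 CPM without Blimp-1. The part of these cells in the Ccl3 and Ccl4 values was not tested.

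Ccl1 had 11, 0 and 8 counts in Control and 31, 14 and 50 in Blimp-1-deficient libraries, at 0.133, 0 and 0.0845 CPM against 0.375, 0.181 and 0.517 CPM. The groups did not overlap, but the count of 0 in Control replicate 2 allows up to 0.731 CPM, above every other library of the experiment. Ccl1 had a log2 fold change of 1.83 (SE 0.66, adjusted p = 0.341), and 1.74 (SE 0.56, adjusted p = 0.0835) without Control replicate 2. Ccl5 was at 3.06, 1.22 and 3.34 CPM in Control and 4.91, 3.71 and 3.29 CPM without Blimp-1. The ranges overlapped, and the log2 fold change was 0.56 (SE 0.36, adjusted p = 0.63), or 0.32 (SE 0.20, adjusted p = 0.317) without Control replicate 2.

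The ligands of Ccr4 did not pass the threshold, and single libraries differed widely. Ccl17 was at 1.07, 4.38 and 6.72 CPM in Control and without Blimp-1 at 2.60, 6.41 and 7.60 CPM, with overlapping ranges (log2 fold change 0.46, SE 0.70, adjusted p = 0.863, or 0.51 and 0.663 without Control replicate 2). Ccl22 was even in Control at 1.66, 1.71 and 1.73 CPM, although the value of replicate 2 rested on only 7 counts. Without Blimp-1 it spread over 0.544, 14.1 and 2.08 CPM in replicates 1 to 3. Replicate 2 of the Blimp-1-deficient group held 1095 Ccl22 counts, against 45 and 201 in the others of its group. The log2 fold change of Ccl22 was 1.71 (SE 1.09, adjusted p = 0.626), 1.72 (adjusted p = 0.345) without Control replicate 2, and became -0.36 without Blimp-1-deficient replicate 2, so its direction rested on 1 library.

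Markers of macrophages, a known source of Ccl17, are given beside its values. The 12 monocyte and macrophage markers, of which 9 to 12 were detected, summed to 37.7, 97.2 and 136 CPM in Control replicates 1 to 3 and to 35.6, 89.1 and 119 CPM in replicates 1 to 3 without Blimp-1. Ccl17 had the same order of the 3 libraries as this sum within Control and within the Blimp-1-deficient group, an order that was not tested. Within the unstimulated and the IL-33 stimulated libraries Ccl17 did not have the order of the sum. IL-33 stimulated replicate 3 had the highest sum of its group and the lowest Ccl17. Lyz2, the lysozyme of these cells and the highest of the list in all 14 libraries, ran from 15.4 to 92.0 CPM in Control and from 14.1 to 74.9 CPM in Blimp-1-deficient libraries. Csf1r, the receptor that defines macrophages, was at 0.555, 3.65 and 1.45 CPM in Control, highest in replicate 2 where Ccl17 was highest in replicate 3, and at 0.822 to 1.73 CPM in Blimp-1-deficient libraries. Of the 12 markers, 0 were higher and 1 was lower without Blimp-1, the monocyte gene Ly6c2 (log2 fold change -3.97, adjusted p = 0.0317), which was not called without any other 1 library than Control replicate 2 (adjusted p from 0.113 to 0.237). Without Control replicate 2, the macrophage genes Adgre1, C1qa and C1qb were higher (adjusted p = 0.00427, 0.0372 and 0.0223) and Ly6c2 lower. The calls of C1qa and C1qb rest on leaving out that library, which had the highest values of the experiment: C1qa was at 0, 9.74 and 0.190 CPM in Control against 0.665 to 2.06 CPM without Blimp-1, and C1qb at 0, 8.04 and 0.0634 CPM against 0.350 to 1.11 CPM. Adgre1 was at 1.12, 3.17 and 1.52 CPM in Control and 3.96, 4.50 and 5.94 CPM without Blimp-1. Adgre1, 1 of the 12 markers, was thus higher in the same libraries as Ccl2, whereas the sum of the 12 overlapped between these groups. Ccl2 had the order of the sum within the Blimp-1-deficient libraries and not within Control. The part of these cells in the Ccl2 values was not tested. In the stimulation experiment the marker sum was 222, 109, 117 and 95.3 CPM in unstimulated and 118, 60.8, 133 and 43.4 CPM in IL-33 stimulated libraries, with overlapping ranges, and 0 of 9 markers tested passed the threshold there, or 1, Cd14, lower (-0.94, adjusted p = 0.0364), without IL-33 stimulated replicate 3. The part of these cells in the Ccl17 values was not tested.

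**Figure D4:**
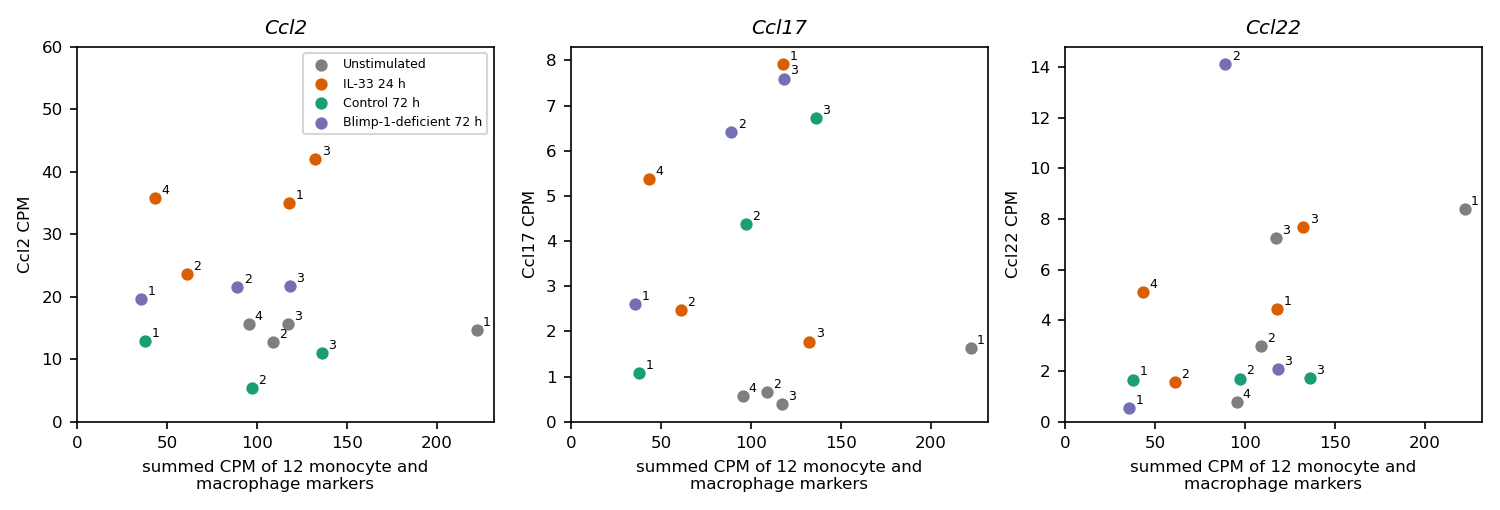
CPM of Ccl2, Ccl17 and Ccl22 (vertical axes) against the summed CPM of 12 monocyte and macrophage markers (horizontal axis), 1 point per library, coloured by group and numbered by replicate. Ccl17 has the order of the marker sum within the 3 Control and within the 3 Blimp-1-deficient libraries. It does not have that order within the unstimulated or the IL-33 stimulated libraries. Every IL-33 stimulated library holds more Ccl17 than every unstimulated one, and the part of these cells in the values was not tested.

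Markers of dendritic cells, the other known source of Ccl17 and Ccl22, were partly detected. The 10 markers summed to 62.6 to 95.8 CPM in unstimulated, 62.1 to 137 in IL-33 stimulated, 93.1 to 140 in Control and 106 to 122 CPM in Blimp-1-deficient libraries, with 6 to 10 detected. Siglech was at 0 to 0.0104 CPM and Cd209a at 0 to 0.127 CPM in all libraries, whereas Xcr1 and Fscn1, which made up much of the sum, were present throughout. After IL-33, 2 of 5 tested were higher and 0 lower, Xcr1 (0.43, adjusted p = 0.00697) and Ccr7 (1.51, adjusted p = 0.00237), and without IL-33 stimulated replicate 3 Fscn1 was lower (-1.49, adjusted p = 0.000172). In the Blimp-1 comparison 0 of 6 passed, and without Control replicate 2 Fscn1 was higher and Xcr1 lower (0.59 and -0.83). Within the IL-33 stimulated group, replicate 3 had the highest sum, with Fscn1 at 75.5 CPM, Zbtb46 at 13.1 CPM, Flt3 at 3.84 CPM and the macrophage gene Csf1r at 27.2 CPM, against 12.3 to 13.2, 1.41 to 1.73, 0.0354 to 0.131 and 0.486 to 2.17 CPM in the other 3. That library had the highest Ccl2, Ccl3, Ccl5 and Ccl22 of its group and the lowest Ccl17 and Ccl1. The T cell markers, all 10 detected in every library but IL-33 stimulated replicate 3, summed to 191 to 216 CPM in unstimulated and 50.3 to 74.5 CPM in IL-33 stimulated libraries, and 5 of the 10 fell (Cd3g, Trac, Trbc1, Trbc2 and Cd4, by 1.09 to 1.86 on the log2 scale), or 6 without replicate 3, with Cd3d, and 3 without IL-33 stimulated replicate 1 or unstimulated replicate 2 or 3. Other lists moved after IL-33 as well. Of the 10 ILC2 markers, 8 fell (Gata3, Il1rl1, Il7r, Klrg1, Icos, Thy1, Il17rb and Nmur1, by 0.36 to 3.07 on the log2 scale) and Il2ra rose (0.58), while fits without 1 library had 7 to 8 lower and 0 to 1 higher. Of the mast cell and basophil markers both tested fell, Cpa3 and Kit, and of the NK cell and ILC1 markers Nkg7 fell. Of the epithelial and stromal markers Epcam, Col1a2 and Cdh5 fell and Pecam1 rose, and of the B cell markers Cd79b rose. Without IL-33 stimulated replicate 3, 5 epithelial and stromal and 2 B cell markers were lower, and Cd79b was not called without IL-33 stimulated replicate 1 or 2. The part of these cells in the ligand values was not tested.

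The genes most like each member were taken as those with the highest smaller value of its 2 Pearson correlations of log2(CPM + 1), over the 8 libraries of the stimulation experiment and over the 5 libraries of the Blimp-1 experiment without Control replicate 2, among 9814 genes. Libraries within a correlation share depth and group, and no test was made. Ccl2 was most like Mmp13, a collagenase (r = 0.978 and 0.972), followed by Dscaml1 (0.961 and 0.969) and Ica1 (0.954 and 0.984). Ccl17 was most like Mmp12, the macrophage elastase (r = 0.928 and 0.905), followed by Tex2 (0.900 and 0.912) and Dgat1 (0.881 and 0.984). Ccl5 was most like Serpina3g (r = 0.884 and 0.864) and the interferon-inducible GTPases Gbp5 (0.855 and 0.852) and Gbp3 (0.790 and 0.807). For Ccl3 (Sec22a, 0.832 and 0.852; then Gnai1 and Dnajb4) and Ccl22 (Slc15a4, 0.695 and 0.767; then Ube2d2a and Gm12396) the closest genes were less alike. Ccl1 and Ccl4 were not compared in this way, since they were not tested in both experiments.

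Of 14 other CC chemokine ligands listed, 7 were tested after IL-33, where 1 was higher and 0 lower. Ccl7, a close relative of Ccl2 that also binds Ccr2, was at 3.75 to 7.26 CPM in unstimulated and 9.17 to 14.1 CPM in stimulated libraries (log2 fold change 1.10, SE 0.25, adjusted p = 0.0107). Without IL-33 stimulated replicate 3 the eosinophil attractant Ccl11 was higher as well (1.41, adjusted p = 0.025). In the Blimp-1 comparison 8 were tested, with 0 higher and 0 lower, and without Control replicate 2 Ccl7 was higher by 0.66 on the log2 scale (adjusted p = 0.0111). Ccl6, the most abundant of the list, ran from 32.9 to 85.6 CPM in unstimulated, from 14.5 to 44.7 CPM in IL-33 stimulated and from 7.91 to 65.7 CPM over the Blimp-1 libraries, and did not pass the threshold in either comparison (log2 fold change -0.93, adjusted p = 0.131, and 0.15, adjusted p = 0.982). Without IL-33 stimulated replicate 1, Ccl6 was called lower after IL-33 (adjusted p = 0.039).

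Of 8 receptors listed for the members, 7 were tested after IL-33, of which 3 were higher and 1 lower. Ccr4, the receptor of Ccl17 and Ccl22, was at 37.9 to 55.2 CPM in unstimulated and 229 to 346 CPM in stimulated ILC2s (log2 fold change 2.68, SE 0.16, adjusted p = 2.47e-05). Ccr1 and Ccr3, receptors of Ccl5, also rose (2.54, adjusted p = 0.000273, and 1.08, adjusted p = 0.04), although Ccr3 was not called without any 1 of 6 of the libraries (adjusted p from 0.0725 to 0.108). Without IL-33 stimulated replicate 3 there were again 3 higher and 1 lower. Ccr2, the receptor of Ccl2 and the most abundant of the list, fell by 1.27 on the log2 scale (SE 0.12, adjusted p = 0.000201), from 1669 to 2095 CPM down to 658 to 876 CPM. Ccr8, the receptor of Ccl1, was at 42.6 to 58.7 and 42.1 to 67.6 CPM (log2 fold change 0.09, adjusted p = 0.685). In the Blimp-1 comparison 0 of 7 tested passed with all libraries. Without Control replicate 2, among the receptors reported here, Ccr4 was higher (0.95, adjusted p = 0.000441), and Ccr1 and Ccr3 were lower (-0.83 and -1.73, adjusted p = 0.00219 and 0.00331).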

How the data were processed

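The deposited counts are whole reads per gene and library. Per the methods, the authors removed adaptors from the 75-base paired-end reads (cutadapt), used HISAT2 for alignment to GRCm38 and Subread for counting. The labels list mm10, Bowtie2, Subread and DESeq2, and the strand setting is not given in the sources used here. TPM values were computed by the authors from those counts and the gene lengths. The tables held 0 sample columns that were not used.

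Each experiment was fitted alone over all genes with the edgeR 4.0.16 quasi-likelihood test (R 4.3.3, TMM, filterByExpr), with p-values adjusted over all genes tested and a threshold of 0.05. DESeq2 1.42.0, limma 3.58.1 (voom with sample weights, and log2(TPM + 1) or log2(TPM + 0.1) where the mean TPM reached 1), other scalings, no filter, a replicate block and fits without each library in turn were alternatives. The fits were tested on simulated data. CPM per kilobase was preferred to TPM for levels, since 80.8% of the TPM of Control replicate 2 lay in a few large rows. With these rows left out, its member sum went from 1.81 to 9.43 TPM, against 79.4 and 131 in Control replicates 1 and 3. The cause of the remaining gap was not tested. Samples were grouped by genotype or by title. Libraries are labelled as separate mice, but the study's legends mention sorting samples from pooled animals. A library may therefore hold cells of more than 1 mouse, and the p-values would then measure spread between pools. Whether libraries shared animals is not stated.

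The members and gene lists were chosen with earlier results of these data known. All members are named. Genes of the lists are named where they passed the threshold with all libraries or are the most abundant of their list (1 listed gene is not reported here), and for each member tested in both experiments the 3 most alike genes with a mean of at least 5 CPM. Some marker genes, Ccr8, Ccl11 and some of the genes called without a library were named after their values were seen. Promoters are from RefSeq (GRCm38.p6), cut before the GENCODE M21 start. Counting intervals and floors cover counting error only.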

Additional observations from a re-analysis of the deposited data

Results flagged for a closer look

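A library lay far from the others of its group, by Dixon's criterion for groups of 4, in 2 of the 14 pairs of a member and a group tested, where chance gives about 1 in 20 groups. Ccl4 stood at 0.595 CPM in unstimulated replicate 3, from 14 counts, where the other unstimulated libraries had 0 to 2 counts. The same library had the highest Ccl3, at 1.83 CPM, and without it the log2 fold change of Ccl3 after IL-33 was 1.74 (edgeR, adjusted p = 0.0522). Ccl5 stood at 2.34 CPM in IL-33 stimulated replicate 4, where the other stimulated libraries were at 7.35 to 7.98 CPM. That library also had the lowest sum of monocyte and macrophage markers of its group, 43.4 CPM, whose part in the value was not tested.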

How the results depend on the processing

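Of 99 alternative fits of member fold changes after IL-33, 83 kept their direction and side of the threshold, and of 109 in the Blimp-1 comparison 100 did. In the Blimp-1 comparison the TPM fits and the replicate block called at most 1 gene of all in either direction. Members that stayed uncalled in such fits therefore say nothing about how stable the result was. After IL-33, limma on log2(TPM + 1) without a filter called 1 member higher, since Ccl17 missed the threshold (adjusted p = 0.0553), and fits without 1 replicate called 1 to 3, Ccl1 among them where it passed the filter through its stimulated libraries. In the Blimp-1 comparison DESeq2 and voom with sample weights each called 1 member higher (Ccl2) and 1 lower (Ccl4), with 7.47% of all genes higher and 5.34% lower for voom. Fits without 1 replicate called 0 to 1 in each direction, but those that kept Control replicate 2 called at most 7 genes of all higher and 2 lower, so their count of 0 says nothing about the members. Signs turned for Ccl22 after IL-33 (0.12 with the replicate block, -0.38 to 0.43 without 1 replicate), Ccl3 in the Blimp-1 comparison (0.26 with limma on log2(TPM + 0.1)), Ccl17 there (-0.031 to 1.24 without 1 replicate) and Ccl22 there (-0.36 to 2.26). The cause was not tested. Replicate numbers were not taken to pair the samples, which the design text gives as 8 separate mice in the stimulation experiment (correlations of same-numbered deviations from -0.145 to 0.282 and from -0.134 to 0.122). With the replicate block, Ccl2 and Ccl17 after IL-33 gave 1.19 and 2.40 (adjusted p = 0.00467 and 0.00847), members called were 2 higher and 0 lower after IL-33 and 0 and 0 in the Blimp-1 comparison, and calls over all genes there went from 78 higher and 53 lower to 0 and 0 (1380 genes at an unadjusted p below 0.05). Scaling by library size alone moved the median of all genes to 0.45 in the Blimp-1 comparison and TPM to between 0.34 and 1.69, so fold changes there are read against those shifts. The ratio of Ccl17 to Ccl22 after IL-33 kept its direction without each replicate (log2 difference 1.53 to 2.84, exact permutation p from 0.0571 to 0.114). Depth limited Ccl1 and Ccl4 in the stimulation experiment and every member in Control replicate 2.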
